A study of Homo sapiens with 12 samples.

Results

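Unfolded protein response genes were followed across 2 prostate cancer cell lines treated with a glucocorticoid. The set was a list of 33 genes of the response, matched by gene symbol to the platform's annotation. The rule for its members uses no measured value, but the list was drawn up with earlier results of these data known. Of these, 32 had a named row on the array, 1 row each, among 17687 genes in all, and HSP90B1 is not analysed here. The measured genes fell into 13 chaperones and folding factors, 6 sensors and transcription factors, 4 degradation genes, 7 genes of the ATF4 arm and 2 translocation genes. The lines were called LNCaPabl-Abi and LNCaPabl-Enza. Their names place them with LNCaP, which is an established line from a human prostate cancer, and the labels do not spell out Abi or Enza. Abi_Ctrl and Enza_Ctrl received the solvent DMSO, while Abi_Dex and Enza_Dex received 100 nM dexamethasone, a synthetic glucocorticoid, each for 24 h. Each of the 4 groups was measured on 3 arrays. A difference between lines rests on 1 line of each kind.

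The unfolded protein response is the set of signals by which a cell matches the folding capacity of its endoplasmic reticulum (ER) to the load of secretory protein. Sensors in the ER membrane, IRE1 (ERN1), PERK (EIF2AK3) and ATF6, respond to unfolded protein. IRE1 splices XBP1 mRNA, ATF6 is cut free in the Golgi, and PERK slows translation and favours that of ATF4. XBP1 and ATF6 induce ER chaperones and degradation factors, and ATF4 induces genes of amino acid supply, redox balance and, under lasting stress, cell death. Prostate luminal cells are secretory and rely on these factors for the proteins they export.

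Promoter sequences show which of these genes hold exact matches to the elements through which the ER chaperones are known to be induced. RefSeq promoters (GRCh38.p14, 250 bases before to 50 after each start) were at hand for 32 of the 33 genes, in 44 promoters because some genes have several starts, and not for PDIA3. Both strands were searched for exact matches only, so a gene without a match may still carry a variant of an element. The ER stress element, ERSE, which is CCAAT and CCACG with 9 free bases between, was found in 7 of these genes (CALR, CANX, CRELD2, HSP90B1, HSPA5, PDIA6 and XBP1), while 0.0916% of all 27305 genes with a promoter carried it. ERSE-II, which is ATTGG and CCACG with 1 free base between, was found in HERPUD1, HYOU1 and SDF2L1, against 0.0696% of all genes. Since these elements are known through such genes, their matches in the set are no independent finding. The shares over all genes include the genes of the set. The first match in each measured gene is given below, read on the strand of the motif, with the fixed letters in capitals and the free letters in lower case.
HSPA5: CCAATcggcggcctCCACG
CRELD2: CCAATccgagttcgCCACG
PDIA6: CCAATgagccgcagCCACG
CALR: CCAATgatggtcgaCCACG
CANX: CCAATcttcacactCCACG
XBP1: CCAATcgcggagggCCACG
HERPUD1: ATTGGgCCACG
HYOU1: ATTGGaCCACG
SDF2L1: ATTGGtCCACG

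The whole stretch before the start is shown for 4 genes that recur in the results, on the strand of the gene, with every matched letter in capitals. A match on the opposite strand appears as its reverse complement. HSPA5 (chr9:125241344-125241593, minus strand) had an ERSE that began 66 bases before the start. CRELD2 (chr22:49918384-49918633, plus strand) had one on the opposite strand, 80 bases before the start. HYOU1 (chr11:119057206-119057455, minus strand) had 2 ERSE-II matches, 185 and 79 bases before the start, and the farther one overlapped the UPRE, TGACGTGG. CHAC1 (chr15:40953221-40953470, plus strand) had 1 match to TTGCATCA, an element bound by ATF4 with C/EBP partners, 209 bases before the start.
HSPA5: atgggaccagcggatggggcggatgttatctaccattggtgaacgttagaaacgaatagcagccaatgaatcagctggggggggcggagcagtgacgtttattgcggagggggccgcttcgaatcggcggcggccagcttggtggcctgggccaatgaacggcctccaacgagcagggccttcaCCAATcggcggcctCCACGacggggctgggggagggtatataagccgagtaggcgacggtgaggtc
CRELD2: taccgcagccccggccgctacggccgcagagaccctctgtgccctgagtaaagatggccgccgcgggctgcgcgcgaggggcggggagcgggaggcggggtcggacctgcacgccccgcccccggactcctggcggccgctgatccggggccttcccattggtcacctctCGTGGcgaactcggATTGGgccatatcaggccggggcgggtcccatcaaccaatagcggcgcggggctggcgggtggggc
HYOU1: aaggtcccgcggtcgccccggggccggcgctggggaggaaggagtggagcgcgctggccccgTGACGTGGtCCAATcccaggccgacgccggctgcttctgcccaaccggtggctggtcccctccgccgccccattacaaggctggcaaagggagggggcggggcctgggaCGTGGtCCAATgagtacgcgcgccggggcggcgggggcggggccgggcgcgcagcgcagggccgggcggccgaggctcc
CHAC1: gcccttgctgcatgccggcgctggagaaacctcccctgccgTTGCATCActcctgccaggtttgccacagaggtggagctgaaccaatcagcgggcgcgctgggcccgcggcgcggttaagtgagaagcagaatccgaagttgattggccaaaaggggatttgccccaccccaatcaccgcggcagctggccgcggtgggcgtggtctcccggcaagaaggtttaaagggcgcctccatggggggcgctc

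Matches to other elements were fewer. TTGCATCA was found in CHAC1 and HERPUD1 and in 1.08% of all genes, and the cAMP response element TGACGTCA in CREB3L2 and PPP1R15A and in 2.25% of all genes. The UPRE was found in HYOU1 alone among these genes and in 0.927% of all genes. The full glucocorticoid receptor palindrome, AGAACA and TGTTCT with 3 free bases between, matched 0 of these genes within the window and 1 gene of all 27305. A match describes letters in the window, not binding, and whether any of these motifs was in use in these cells was not measured.

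Of the 12 arrays, Enza_Ctrl replicate 2 was unlike the rest. Its correlation with them over all genes had a median of 0.855, where the other 11 had 0.986 to 0.990. Its poly-A spike-ins averaged 3.46 against 7.07 to 8.10, and its background rows 5.50 against 4.50 to 4.60. SGK1, a glucocorticoid-induced kinase that checks the treatment, was 7.39 ± 0.63 (SE) higher on the log2 scale after dexamethasone in LNCaPabl-Abi (limma adjusted p = 5.08e-05). In LNCaPabl-Enza it was 4.43 ± 0.70 (SE) higher, with no overlap between groups and a limma adjusted p of 0.269, both without that array. Its Enza_Dex arrays read 9.66, 9.99 and 13.20, so the array numbered 3 lay far above the other 2. TSC22D3, another glucocorticoid-induced gene, differed by 1.5 ± 0.45 (SE) in LNCaPabl-Abi and 0.39 ± 0.50 in LNCaPabl-Enza, with overlap in both. NR3C1, the glucocorticoid receptor, read 11.14, 11.30 and 11.49 in Abi_Ctrl and 9.44, 9.99 and 10.16 in Abi_Dex, lower without overlap. It read 6.51 and 10.37 in the retained Enza_Ctrl arrays, and 6.72, 6.38 and 9.03 in Enza_Dex. Within each Enza group the array numbered 3 was thus the highest for the receptor. The part of this in the comparisons of the lines' responses was not tested. Markers of luminal prostate cells had array medians of 12.33 to 13.25 on the other 11 arrays, and fibroblast, immune, endothelial, basal and neuroendocrine markers 3.65 to 4.93. In such bulk RNA, fewer cells of a kind and less RNA per cell cannot be told apart.

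The same array gave low values for many unfolded protein response genes. On it, 16 of the 32 genes (50%) were more than 1 log2 unit below the mean of the other Enza_Ctrl arrays, a distance reached by 28.7% of all genes. The median of these deviations was -0.99, and -0.10 over all genes. ATF6 read 6.08 there against 11.09 and 11.22 on the other arrays of its group, a deviation of -5.07 from their mean. CRELD2 read 4.26 against 9.26 and 8.60, and DNAJC3, a co-chaperone that restrains PERK, 9.26 against 12.08 and 12.01. Other genes went the opposite way: DDIT3, which encodes the death-linked factor CHOP, read 7.99 against 6.85 and 6.11, and PPP1R15A, a phosphatase subunit that restores translation, 6.24 against 5.27 and 5.03. All 4 degradation genes were among the 16. The counts and medians of the set in each comparison with Enza_Ctrl are therefore given with and without this array. Differences of single genes in these comparisons are without it unless both values are given.

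**Figure D1:**
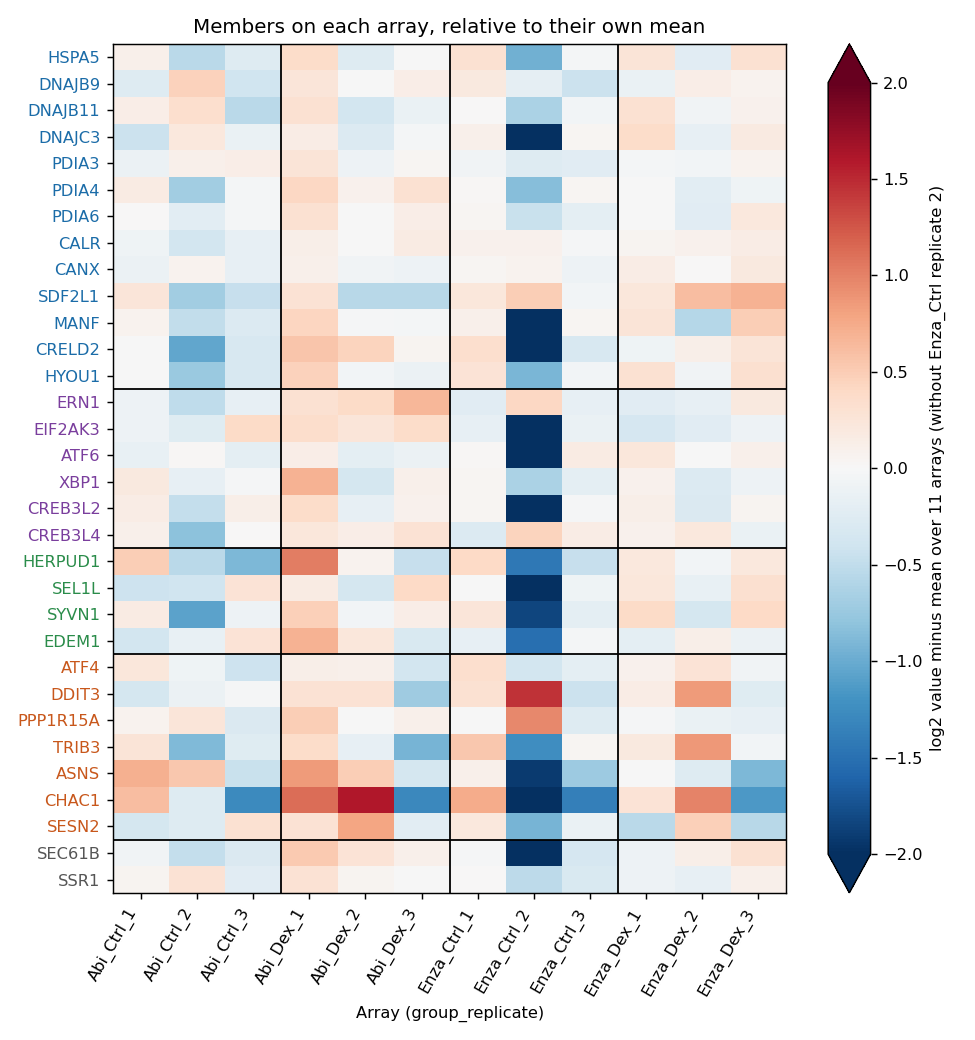
Deposited log2 value of each of the 32 genes (rows, by role, names coloured by role) on each of the 12 arrays (columns), minus the gene's mean over the 11 arrays other than Enza_Ctrl replicate 2. Blue is below and red above that mean, with colours capped at -2 and 2. The column that differs most is Enza_Ctrl replicate 2, where ATF6 read 6.08 against 11.09 and 11.22 on the other arrays of its group, and CHAC1 is low on all arrays numbered 3 (7.56 to 7.78).

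Dexamethasone in LNCaPabl-Abi was accompanied by slightly higher values of nearly the whole set on the deposited scale, and by no called gene in it. Of the 32 genes, 31 had a positive difference, with a median of 0.24 on the log2 scale, where 50.4% of all genes were positive and the median was 0.00. The medians by role were 0.22 for chaperones (12 of 13 positive), 0.23 for sensors and transcription factors (6 of 6), 0.40 for degradation genes (4 of 4), 0.13 for the ATF4 arm (7 of 7) and 0.32 for the 2 translocation genes. With 12 arrays limma called 0 of the 32 genes at an adjusted p under 0.05, where it called 0.0283% of all genes higher and 0 lower. Without Enza_Ctrl replicate 2, which enters here only through the pooled spread, 0 were called against 0.141% of all genes higher. At an unadjusted p under 0.05 there was 1 of the 32 with 12 arrays and 4 without that array, beside 1.36% and 7.09% of all genes. The groups did not overlap for 5 genes, all higher (ERN1, CRELD2, SEC61B, CALR and CREB3L4), beside 6.26% of all genes higher and 6.01% lower. With the median of each array subtracted, 23 of the 32 were positive with a median of 0.17. The median rested in part on Abi_Dex replicate 1: without it, 20 of 32 genes were positive and the median was 0.11. Without Abi_Ctrl replicate 2 the median was 0.19, with 29 of 32 positive, and without Abi_Ctrl replicate 3 it was 0.25, with 25 positive. The differences in this line are equal with 12 and 11 arrays, and the errors below are those without Enza_Ctrl replicate 2 unless stated. With 12 arrays the limma adjusted p of all 32 genes was 1.00.

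**Figure D2:**
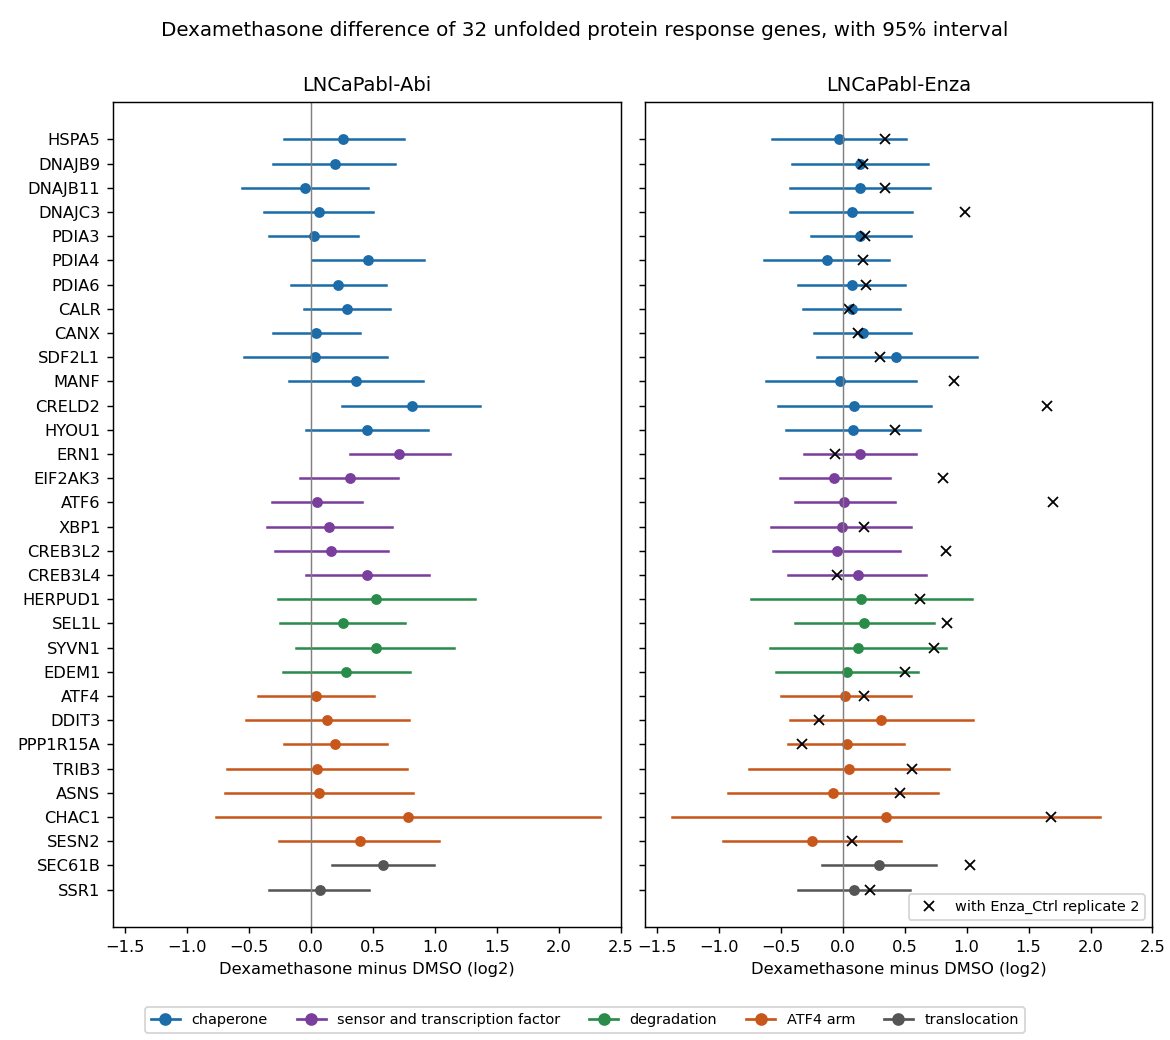
Dexamethasone minus DMSO on the log2 scale for each of the 32 genes in LNCaPabl-Abi (left) and LNCaPabl-Enza (right), as the limma estimate (point) and its 95% interval (line) without Enza_Ctrl replicate 2. Crosses are the LNCaPabl-Enza estimates with that array, and they lie far to the right of the points for ATF6 (1.70 against 0.01) and CRELD2 (1.65 against 0.09). In LNCaPabl-Abi 31 of 32 points are above 0.

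Among the sensors and transcription factors, ERN1 had the smallest p of the whole set in this comparison. ERN1 encodes the kinase and endoribonuclease IRE1. It read 9.46, 9.06 and 9.40 in Abi_Ctrl and 9.88, 9.95 and 10.24 in Abi_Dex. Every treated array was above every control array, by 0.71 ± 0.25 (SE) with 12 arrays and 0.71 ± 0.19 without Enza_Ctrl replicate 2, or 1.64-fold on the deposited scale. The limma adjusted p was 1.00 and 0.355, and the 95% interval without that array ran from 0.31 to 1.12. The other sensors stayed closer to 0. EIF2AK3, the kinase PERK, read 9.32, 9.18 and 9.81 with DMSO and 9.78, 9.67 and 9.79 with dexamethasone, which overlap through the third control array (0.31 ± 0.19, SE). ATF6, the membrane-bound factor, differed by 0.05 ± 0.17 (SE).

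XBP1, whose mRNA IRE1 splices, differed by 0.14 ± 0.24 (SE) in LNCaPabl-Abi, and its row does not tell the spliced from the unspliced form in these values. CREB3L2 and CREB3L4 encode relatives of ATF6 that are likewise cut in the Golgi, and CREB3L4 is known for its expression in prostate. CREB3L4 read 5.64, 4.71 and 5.55 in Abi_Ctrl and 5.77, 5.67 and 5.82 in Abi_Dex. The groups were separated only by 5.67 against 5.64, and the difference of their means came mostly from the low second control array. The level is not far above that of the background rows. The CREB3L4 difference was 0.45 ± 0.23 (SE, adjusted p = 0.724 in limma), and that of CREB3L2 0.16 ± 0.21.

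Among the chaperones, CRELD2 had the largest difference. It encodes an ER-resident factor induced by ER stress. It read 8.91, 7.89 and 8.60 in Abi_Ctrl and 9.48, 9.37 and 8.98 in Abi_Dex, with no overlap. The difference was 0.81 ± 0.26 (SE) without Enza_Ctrl replicate 2 (limma adjusted p = 0.551) and 0.81 ± 0.97 with it, because that array widens the pooled spread of CRELD2. CALR, the lectin chaperone calreticulin, read 16.76, 16.47 and 16.67 with DMSO and 16.95, 16.83 and 17.01 with dexamethasone. All treated arrays were higher, by 0.29 ± 0.16 (SE, adjusted p = 0.740 in limma).

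PDIA4, a protein disulfide isomerase, read 11.81, 10.96 and 11.62 in Abi_Ctrl and 12.07, 11.74 and 11.96 in Abi_Dex. HYOU1, an exchange factor that resets the chaperone BiP, read 14.44, 13.70 and 14.13 against 14.91, 14.39 and 14.33. In both, the second control array was the lowest and the groups overlapped through the first control array, with differences of 0.46 ± 0.21 and 0.45 ± 0.23 (SE). HSPA5, which encodes BiP itself, read 14.71, 14.07 and 14.35 against 14.97, 14.35 and 14.60. For HSPA5, as for PDIA4, the second array was the lowest of both the control and the treated group. The HSPA5 difference of 0.26 ± 0.23 (SE) had a 95% interval from -0.22 to 0.75.

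The other chaperones lay between -0.05 and 0.36. MANF, a small ER protein that is secreted under stress, differed by 0.36 ± 0.25 (SE), and the isomerase PDIA6 by 0.22 ± 0.18. DNAJB9, a co-chaperone of BiP, differed by 0.19 ± 0.23, DNAJC3 by 0.06 ± 0.21 and the membrane lectin CANX by 0.04 ± 0.16. SDF2L1, a partner of the BiP co-chaperone DNAJB11, differed by 0.03 ± 0.27, the isomerase PDIA3 by 0.02 ± 0.17 and DNAJB11 by -0.05 ± 0.24. DNAJB11 was the only one of the 32 with a negative difference. The 9 measured genes with an ERSE or ERSE-II match had differences of 0.03 to 0.81 with a median of 0.26, and the 23 without one -0.05 to 0.78 with a median of 0.19. These medians were not compared by a test, and each lies within the range of the other group.

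**Figure D3:**
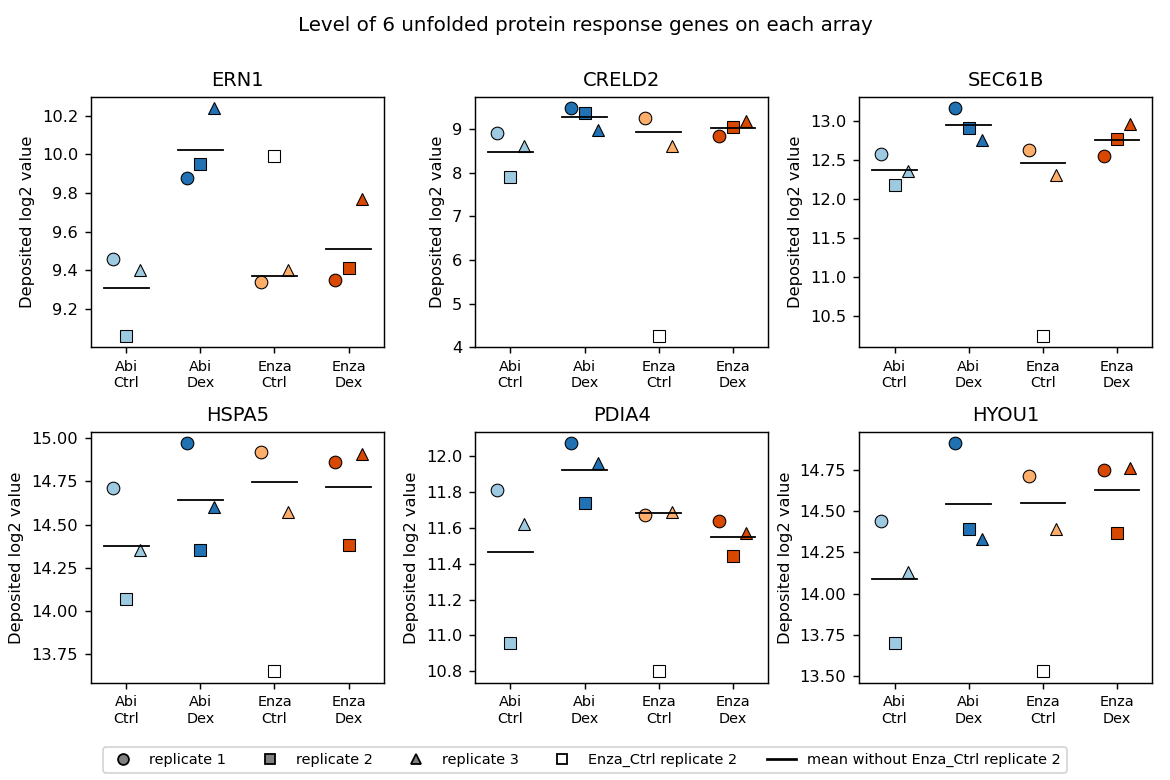
Deposited log2 values of ERN1, CRELD2, SEC61B, HSPA5, PDIA4 and HYOU1 on each array, by group, with symbols for the replicate numbers, lines for the group means without Enza_Ctrl replicate 2, and that array as an open square. The vertical scales differ between genes. Abi_Dex lies above Abi_Ctrl without overlap for ERN1, CRELD2 and SEC61B, while the Enza groups overlap in all 6 genes apart from PDIA4, whose Enza_Dex arrays (11.64, 11.44 and 11.57) are below the retained Enza_Ctrl arrays (11.67 and 11.69).

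Degradation genes had the highest median of the 5 roles in LNCaPabl-Abi, with groups that overlapped in all 4. SYVN1, the ubiquitin ligase of ER-associated degradation, read 11.71, 10.47 and 11.43 in Abi_Ctrl and 12.01, 11.48 and 11.67 in Abi_Dex. The second array was the lowest in both groups and far below the others in Abi_Ctrl, and the difference was 0.52 ± 0.30 (SE, adjusted p = 0.741 in limma). HERPUD1, a membrane adaptor of that ligase, read 13.33, 12.29 and 11.94 against 13.86, 12.90 and 12.37. In both groups the first array was the highest and the third the lowest, and the difference was 0.52 ± 0.37 (SE). EDEM1, which hands misfolded glycoproteins to degradation, differed by 0.28 ± 0.24, and SEL1L, the partner of SYVN1, by 0.26 ± 0.24.

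Of the translocation genes, SEC61B stood out from SSR1. SEC61B is the beta subunit of the channel through which proteins enter the ER. It read 12.57, 12.17 and 12.35 in Abi_Ctrl and 13.16, 12.91 and 12.75 in Abi_Dex, with no overlap. The difference was 0.58 ± 0.19 (SE) without Enza_Ctrl replicate 2 (95% interval 0.17 to 0.99, limma adjusted p = 0.577) and 0.58 ± 0.49 with it. SSR1, a subunit of the translocon-associated complex, differed by 0.07 ± 0.19.

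The ATF4 arm in LNCaPabl-Abi had 7 of 7 positive differences that were mostly close to 0. ATF4 itself differed by 0.04 ± 0.22 (SE), with a 95% interval from -0.43 to 0.51, and ASNS, the asparagine synthetase it induces, by 0.06 ± 0.36. TRIB3, a pseudokinase that curbs ATF4 and CHOP, differed by 0.05 ± 0.34, DDIT3 by 0.13 ± 0.31 and PPP1R15A by 0.19 ± 0.20. SESN2, a sestrin that restrains growth signalling, read 6.99, 7.09 and 7.65 in Abi_Ctrl and 7.63, 8.13 and 7.13 in Abi_Dex. Its groups overlapped because the third arrays went the opposite way to the others (0.39 ± 0.30, SE). CHAC1, which degrades glutathione, had the largest difference of the arm and the widest error, 0.78 ± 0.73 (SE), with a 95% interval from -0.77 to 2.33.

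In LNCaPabl-Enza the size of the dexamethasone differences depended on Enza_Ctrl replicate 2. With 12 arrays 28 of the 32 genes were positive with a median of 0.34, where 54% of all genes were positive with a median of 0.06. Without that array 24 were positive with a median of 0.07, beside 51% and 0.00. limma called 0 of the 32 genes in either set of arrays, and 0 of all genes, with 0 of the 32 at an unadjusted p under 0.05 beside 3.96% of all genes with 12 arrays and 3% without. Without the array the median was 0.08 for chaperones (10 of 13 positive), 0.00 for sensors and transcription factors (3 of 6), 0.14 for degradation genes (4 of 4), 0.03 for the ATF4 arm (5 of 7) and 0.19 for the 2 translocation genes (2 of 2). Groups that did not overlap were found for PDIA3 and SDF2L1, both higher, and for PDIA4, lower, beside 7.93% of all genes in each direction. With 12 arrays PDIA3 alone did not overlap, beside 3.96% of all genes higher and 4.77% lower. PDIA3 was separated only by 14.51 against 14.50.

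SDF2L1 had the smallest p in LNCaPabl-Enza without that array. It read 8.12 and 7.84 in the retained Enza_Ctrl arrays, 8.39 in the omitted one, and 8.13, 8.51 and 8.60 in Enza_Dex. The groups were separated only by 8.13 against 8.12, and the difference was 0.43 ± 0.30 (SE, adjusted p = 1.00 in limma), or 0.30 ± 0.32 with all arrays. SEC61B read 12.62 and 12.30, with 10.24 on the omitted array, against 12.54, 12.76 and 12.95. The retained groups overlapped, and the difference went from 1.03 ± 0.49 (SE) with 12 arrays to 0.29 ± 0.21 without that array. CANX read 15.12 and 14.98, with 15.16 on the omitted array, against 15.24, 15.10 and 15.28, which overlap, a difference of 0.16 ± 0.18 (SE).

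Other large differences with 12 arrays shrank in the same way. ATF6 went from 1.70 ± 1.03 (SE) to 0.01 ± 0.19, CHAC1 from 1.68 ± 1.15 to 0.35 ± 0.81 and CRELD2 from 1.65 ± 0.97 to 0.09 ± 0.29. DNAJC3 went from 0.99 ± 0.60 to 0.07 ± 0.23 and MANF from 0.90 ± 0.62 to -0.02 ± 0.28. DDIT3 changed sign, from -0.19 ± 0.46 to 0.31 ± 0.35, since the omitted array was its highest. DDIT3 read 6.85 and 6.11 in the retained controls and 6.69, 7.39 and 6.30 after treatment, which overlap. SESN2 read 7.56 and 7.22, with 6.42 on the omitted array, against 6.81, 7.82 and 6.79, a difference of -0.25 ± 0.34 (SE) and the lowest of the 32. ERN1 read 9.34 and 9.40, with 9.99 on the omitted array, against 9.35, 9.41 and 9.77, so that no difference like that of LNCaPabl-Abi was seen (0.14 ± 0.21, SE, 95% interval -0.31 to 0.59). With the omitted array the group means, Enza_Ctrl and Enza_Dex, were 9.58 and 9.51 for ERN1 and 7.07 and 7.14 for SESN2. The signs of both differences thus turned with that array. For HSPA5 the interval without that array was -0.57 to 0.51, and the means with it were 14.38 and 14.72.

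Averaged over both lines without Enza_Ctrl replicate 2, the dexamethasone difference was positive for 31 of 32 genes with a median of 0.15, beside 49.9% and 0.00 over all genes. It was 0.43 ± 0.14 (SE) for ERN1 and 0.43 ± 0.14 for SEC61B (limma adjusted p = 0.769 for both), 0.45 ± 0.19 for CRELD2, 0.28 ± 0.17 for CREB3L4 and 0.26 ± 0.17 for HYOU1. With 12 arrays 30 of 32 were positive, beside 52.7% of all genes, with a median of 0.30. limma called 0 of the 32 in either set, with 1 at an unadjusted p under 0.05 with 12 arrays and 3 without, beside 2.67% and 5.59% of all genes. Over all genes 0.0283% were called higher with 12 arrays, and 0.147% higher and 0.00565% lower without the array. This average uses the same arrays as the values of each line and is no further evidence beside them.

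The difference between the lines' responses, Enza minus Abi, was tested directly. limma called 0 of the 32 and 0 of all genes in either set of arrays, with 1 of the 32 (ERN1) at an unadjusted p under 0.05 with 12 arrays and 0 without, beside 1.5% and 3.2% of all genes. The median of the set was 0.15 with 12 arrays, with 22 of 32 positive beside 52.2% of all genes. Without Enza_Ctrl replicate 2 it was -0.19, with 8 of 32 positive beside 50.3%, so its direction turned with that array. For ERN1 the difference between responses was -0.78 ± 0.35 (SE) with 12 arrays and -0.57 ± 0.28 without, with a 95% interval from -1.18 to 0.03 without the array. The next lowest p values without that array belonged to PDIA4 (-0.59 ± 0.32, SE), CRELD2 (-0.71 ± 0.39), SESN2 (-0.64 ± 0.45) and EIF2AK3 (-0.37 ± 0.28), each with a limma adjusted p of 0.999. With 12 arrays the signs of CRELD2 and EIF2AK3 turned, and those of PDIA4 and SESN2 did not. CRELD2 then differed by 1.65 in LNCaPabl-Enza and 0.81 in LNCaPabl-Abi. The EIF2AK3 means with DMSO and dexamethasone were 8.40 and 9.21 in LNCaPabl-Enza and 9.44 and 9.75 in LNCaPabl-Abi.

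Compared with each other under DMSO, the lines had no called gene in the set. These comparisons share their arrays with the dexamethasone comparisons above and are not independent of them. limma called 0 of the 32 with and without Enza_Ctrl replicate 2, where it called 0.0565% of all genes higher and 0.209% lower with 12 arrays, and 0.334% higher and 0.956% lower without. At an unadjusted p under 0.05 there were 0 of the 32 in both sets, beside 11.3% and 11.1% of all genes. The median difference of the set, Enza minus Abi, turned from -0.19 (11 of 32 positive, beside 48% of all genes) to 0.12 (22 of 32, beside 49.6%) when that array was left out. Without it, CALR and ATF6 did not overlap, both higher in LNCaPabl-Enza, beside 11.5% of all genes higher and 12.5% lower, and with 12 arrays CALR alone, beside 5.95% and 8.22%. CALR read 16.93 and 16.81 in the retained Enza_Ctrl arrays, while ATF6 was separated only by 11.09 against 11.08. HYOU1 read 14.71 and 14.39 in the retained Enza_Ctrl arrays, with 13.53 on the omitted array. Without Enza_Ctrl replicate 2, CRELD2 differed by 0.46 ± 0.29 (SE), HSPA5 by 0.37 ± 0.25, HYOU1 by 0.46 ± 0.25 and TRIB3 by 0.58 ± 0.38. For each of these genes the second Abi_Ctrl array was below the other 2. With 12 arrays the sign of CRELD2 turned, with means of 7.37 in Enza_Ctrl and 8.47 in Abi_Ctrl. The means were then 14.38 and 14.38 for HSPA5, and 14.21 and 14.09 for HYOU1. TRIB3 stayed higher in Enza_Ctrl, but by less. These differences thus depended on that array.

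With dexamethasone in both lines, a comparison that does not use the divergent array's values, the set again held no called gene. limma called 0 of the 32 in both fits, where 0.124% of all genes were called higher and 0.153% lower with 12 arrays and 0.752% and 1.53% without that array. At an unadjusted p under 0.05 there were 1 and 3 of the 32, beside 4.14% and 11.5% of all genes. The median was -0.09 with 12 of 32 positive, beside 48.6% of all genes. Groups did not overlap for EIF2AK3, ERN1, PDIA4 and PPP1R15A, all lower in LNCaPabl-Enza, beside 10.7% of all genes lower, and for 0 genes higher, beside 9.43%. PPP1R15A was separated only by 5.26 against 5.27, near the background rows.

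SDF2L1 and EIF2AK3 had the lowest p values between the treated lines. SDF2L1 read 8.19, 7.35 and 7.35 in Abi_Dex against 8.13, 8.51 and 8.60 in Enza_Dex, where the first arrays overlap (0.79 ± 0.27, SE, adjusted p = 0.202 in limma). EIF2AK3 read 9.78, 9.67 and 9.79 against 9.10, 9.20 and 9.32, with a gap between the groups and a difference of -0.54 ± 0.19 (SE, adjusted p = 0.206 in limma). ERN1 differed by -0.51 ± 0.19 (adjusted p = 0.253) and PDIA4 by -0.38 ± 0.21. ASNS read 13.11, 12.74 and 11.91 in Abi_Dex against 12.24, 11.99 and 11.36 in Enza_Dex. The groups overlapped, and the difference was -0.72 ± 0.36 (SE, adjusted p = 0.470 in limma). Under DMSO ASNS read 12.96, 12.80 and 11.81 in Abi_Ctrl against 12.35 and 11.53 in the retained Enza_Ctrl arrays, a difference of -0.58 ± 0.40 (SE).

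Within groups, the ATF4 arm varied most, and it did so by replicate number. The median SD within groups, pooled over the 4 groups without Enza_Ctrl replicate 2, was 0.48 for the ATF4 arm, 0.40 for degradation genes, 0.30 for chaperones, 0.23 for sensors and transcription factors and 0.20 for translocation genes, beside 0.26 for all genes. CHAC1 had the largest, 1.27. It read 9.54, 8.67 and 7.66 in Abi_Ctrl, 10.05, 10.53 and 7.64 in Abi_Dex, 9.67 and 7.56 in the retained Enza_Ctrl arrays and 9.20, 9.93 and 7.78 in Enza_Dex. In every group the array numbered 3 was the lowest, and the 4 arrays of that number lay within 7.56 to 7.78 whatever the line or treatment.

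**Figure D4:**
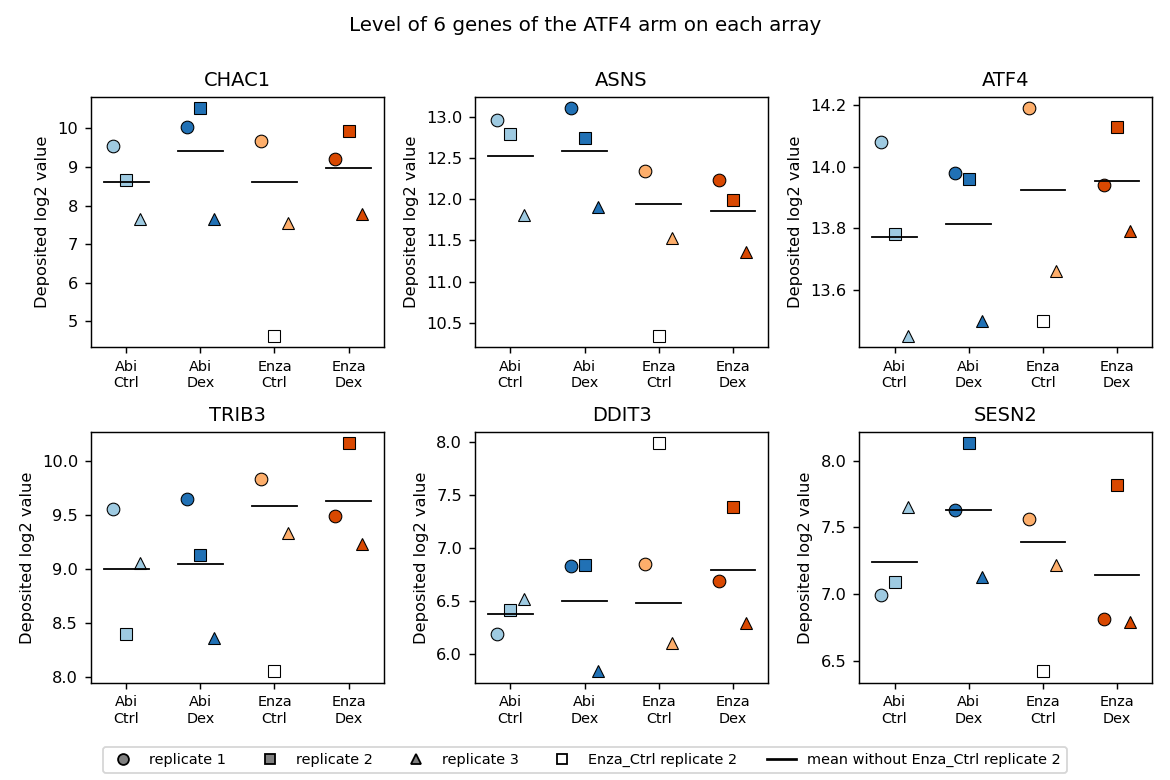
Deposited log2 values of CHAC1, ASNS, ATF4, TRIB3, DDIT3 and SESN2 on each array, by group, with symbols for the replicate numbers, lines for the group means without Enza_Ctrl replicate 2, and that array as an open square. The vertical scales differ between genes. Triangles, the arrays numbered 3, are lowest in all 4 groups for CHAC1 (7.56 to 7.78), ASNS and ATF4 once the open square is set aside.

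The same order held for ASNS and ATF4. ATF4 read 14.08, 13.78 and 13.45 in Abi_Ctrl, 13.98, 13.96 and 13.50 in Abi_Dex, 14.19 and 13.66 in the retained Enza_Ctrl arrays and 13.94, 14.13 and 13.79 in Enza_Dex, so that the third array was lowest each time. Of the 7 genes of the arm 3 had the array numbered 3 lowest in all 4 groups, beside 3.66% of all genes. So did 0 of 13 chaperones and, outside the set, 0 of 32 other ER folding genes, 3 of 21 cytosolic chaperones and 2 of 10 housekeeping genes. DDIT3, PPP1R15A, TRIB3 and SESN2 had that array lowest in 3 of the 4 groups, as did CANX, HERPUD1 and SSR1 outside the arm. The share of all genes at 3 groups was not computed. In Abi_Ctrl that array was the highest for DDIT3 (6.52 against 6.19 and 6.42) and for SESN2 (7.65 against 6.99 and 7.09). TRIB3 read 9.55, 8.40 and 9.05 in Abi_Ctrl, 9.65, 9.13 and 8.36 in Abi_Dex, 9.83 and 9.33 in the retained Enza_Ctrl arrays and 9.49, 10.16 and 9.23 in Enza_Dex.

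Genes of the ATF4 arm outside the set followed the pattern. In a separate list of 35 such genes, 15 (42.9%) had the array numbered 3 lowest in all 4 groups. Averaged over the groups, 30 of the 35 and all 7 genes of the set were lower on that array than on the others of its group, with medians of -0.35 and -0.51, beside 8976 of 17687 genes and 0.00. Among them, chosen here after their values were seen, CARS1, a tRNA synthetase, was lower by an average difference of -1.17, DDIT4, a stress-induced inhibitor of growth signalling, by -0.98, SLC7A11, the cystine transporter, by -0.93 and NUPR1, a small stress protein, by -0.90. SLC7A11 read 13.26, 13.18 and 12.38 in Abi_Ctrl and 13.59, 13.21 and 12.36 in Abi_Dex. CTH, a cystathionine lyase, had the opposite sign, 0.51, at levels near the background rows. Of 18 cell division genes 1 was lower on average on the array numbered 3, and their median was 0.25 higher, and their part in the pattern was not tested. The labels do not say what arrays of one number share, and the pattern was noticed in these data and carries no test.

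**Figure D5:**
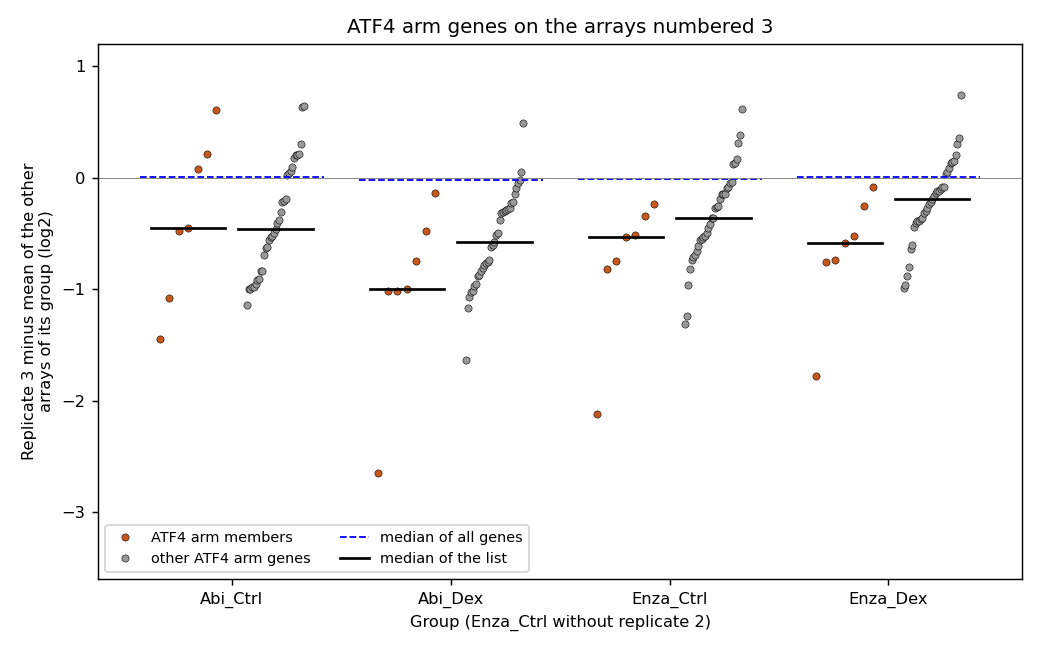
Replicate 3 minus the mean of the other arrays of its group on the log2 scale, for the 7 genes of the ATF4 arm in the set (orange) and 35 other genes of the arm (grey), by group, each point 1 gene and Enza_Ctrl without replicate 2. The list medians (black lines) lie below the median of all genes (dashed, -0.02 to 0.01) in each group, at -1.0 to -0.45 for the set and -0.58 to -0.19 for the other genes.

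The array numbered 1 was highest in all 4 groups for XBP1, CREB3L2 and ASNS, or 3 of 32 genes, beside 2.11% of all genes. XBP1 read 12.15, 11.78 and 11.93 in Abi_Ctrl, 12.65, 11.59 and 12.05 in Abi_Dex, 11.98 and 11.75 in the retained Enza_Ctrl arrays and 12.04, 11.67 and 11.84 in Enza_Dex.

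Beyond the set, the remaining genes of the pathway had list medians between -0.05 and 0.15 in LNCaPabl-Abi. Of the other ER folding genes 22 of 32 were positive with a median of 0.09, of the other degradation genes 19 of 29 (0.10), of the other translocation genes 16 of 26 (0.15), of the other sensors and transcription factors 11 of 18 (0.02) and of the other ATF4 arm genes 24 of 35 (0.15). Cytosolic chaperones were positive in 9 of 21 cases with a median of -0.04, and mitochondrial chaperones in 5 of 13 with a median of -0.05. limma called 0 genes of these 7 lists in either line for dexamethasone. Without Enza_Ctrl replicate 2 the numbers at an unadjusted p under 0.05 in LNCaPabl-Abi were 4, 0, 2, 0, 3, 2 and 0 in the order given, beside 7.09% of all genes. The genes of each list with the smallest p there were CLGN, a lectin chaperone (1.04 ± 0.37, SE), EDEM2 (0.50 ± 0.28), RPN1 of the oligosaccharide transferase (0.47 ± 0.17), PPP1R15B (0.33 ± 0.18), FGF21 (0.65 ± 0.18), CRYAB (1.56 ± 0.34) and YME1L1 (-0.39 ± 0.18). RPN1 read 15.63, 15.38 and 15.82 in Abi_Ctrl and 15.99, 16.08 and 16.17 in Abi_Dex, and FGF21 3.53 to 3.90 and 4.15 to 4.58, near the average of the background rows.

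In LNCaPabl-Enza the same lists had medians of 0.12, 0.02, 0.11, 0.00, 0.10, 0.06 and 0.05 without Enza_Ctrl replicate 2, and their genes with the smallest p were PPIC, BRSK2, OSTC, CREB3, CTH, BAG1 and TRAP1. PPIC, an ER prolyl isomerase, was the only gene of the lists called with 12 arrays, and it was called between the lines. It read 5.98 to 6.04 in Abi_Ctrl against 4.04, 4.83 and 3.67 in Enza_Ctrl, and it was lower in LNCaPabl-Enza with a limma adjusted p of 0.0356, and 1.29e-04 without that array. Its Enza_Ctrl values lie under the average of the background rows of their arrays, so the size of the difference is not given. CALR3, a germ cell relative of CALR, was called lower in LNCaPabl-Enza without that array under DMSO (limma adjusted p = 0.0260) and with dexamethasone (adjusted p = 0.0186). It read 4.28 and 4.10 in the retained Enza_Ctrl arrays and 3.91, 5.03 and 4.01 in Enza_Dex, mostly under the background rows, so no size is given either. CRYAB, a small cytosolic chaperone, read 6.80, 6.11 and 6.62 in Abi_Ctrl, 8.61, 8.10 and 7.49 in Abi_Dex and 6.79, 6.72 and 5.57 in Enza_Dex. Without Enza_Ctrl replicate 2, CRYAB was higher after treatment in LNCaPabl-Abi without a call (adjusted p = 0.154 in limma). In that fit it was called lower in Enza_Dex than in Abi_Dex (-1.70 ± 0.34, SE, adjusted p = 0.0137 in limma). With 12 arrays the latter was not called (limma adjusted p = 0.193).

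Values of other gene groups moved beside those of the set in LNCaPabl-Abi. Cell division genes were positive in 0 of 18 cases with a median of -0.50, luminal prostate markers in 11 of 14 with a median of 0.38, and housekeeping genes in 4 of 10 with a median of -0.04. In LNCaPabl-Enza without Enza_Ctrl replicate 2, cell division genes had a median of -0.16 and luminal markers 0.25. Their part in the small positive differences of the unfolded protein response genes was not tested.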

How the data were processed

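RNA of 12 samples was hybridised to Affymetrix arrays (1 colour, WT PLUS labelling with biotin), per the labels' protocols. The values deposited by the authors are log2 values. RMA, limma and Affymetrix Expression Console are the tools that the submitters' processing notes give, with no versions. These log2 values ran from 1.66 to 18.63, wide for RMA, so folds are on the deposited scale and can exceed the change in RNA. No depth exists for arrays, and their number limits the precision.

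Of 24351 rows, 17709 had 1 gene symbol, all matched to RefSeq by Entrez identifier, and the brightest row per symbol left 17687 genes. Groups and replicate numbers came from sample titles. No label says that replicates were separate cultures. The p-values therefore cover only the spread among these arrays, which may be technical. limma 3.58.1 (R 4.3.3, lmFit and eBayes, statmod 1.5.0) fitted 4 group means to all 12 arrays, with Benjamini-Hochberg adjustment over all genes and a call at an adjusted p under 0.05. Every value was computed again without Enza_Ctrl replicate 2, and standard errors are from that fit of 11 arrays unless stated. The dexamethasone comparisons share DMSO arrays with the comparison of untreated lines, so their values are given side by side.

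Members and lists were chosen with earlier results of these data known, and list counts and medians are descriptions. Every measured member was named. Array values were given for called members, for the 8 with the smallest p for dexamethasone in LNCaPabl-Abi and the 5 with the smallest p elsewhere. Genes of other lists were named when called or of smallest p for dexamethasone. CHAC1, ATF4, XBP1, HERPUD1, PDIA3 and further ATF4 arm genes were added after their values were seen. Alternatives covered pooling, replicate block, normalization, centring, dim genes, rows per gene, array weights, the variance prior and each array left out. The script was tested on simulated data. Promoters came from RefSeq (GRCh38.p14).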

Additional observations from a re-analysis of the deposited data

How the results depend on the processing

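Over 21 settings, 683 values were computed for the genes given array by array in each comparison. Of these, 1 changed its side of the threshold and 24 changed sign, each of the 24 in a comparison that uses Enza_Ctrl. Among the remaining genes of the set signs changed in LNCaPabl-Abi as well, as the counts of positive differences show. The number of set genes called was 0 in every comparison and setting, except 1 between the treated lines in the fit named below. Leaving out each array in turn, the median of the set ranged from 0.11 to 0.30 for dexamethasone in LNCaPabl-Abi, 0.07 to 0.53 in LNCaPabl-Enza, 0.15 to 0.41 for their mean, -0.19 to 0.34 for the difference between the responses, -0.37 to 0.12 between the untreated and -0.16 to 0.03 between the treated lines. The numbers of all genes called ranged from 0 to 25, 0 to 1, 1 to 27, 0 to 0, 11 to 228 and 12 to 403 in the same order, and the highest came without Enza_Ctrl replicate 2, except in LNCaPabl-Enza, where it came without Enza_Dex replicate 3, and for the difference, where all were 0. With array weights, which gave that array 0.03, the medians were 0.08 in LNCaPabl-Enza, -0.18 for the difference and 0.09 between the untreated lines, and 37, 36, 252 and 767 genes were called in LNCaPabl-Abi, for the mean, and between the untreated and the treated lines. With quantile normalization done anew these medians were 0.11, -0.09 and 0.05. Fitted on the groups of a comparison alone, 22, 0 and 502 genes were called in LNCaPabl-Abi and between the untreated and the treated lines. That fit was not possible for the mean and the difference, which use all groups.

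Replicate numbers were tried as a block. Same-numbered arrays had correlations of deviations from -0.04 to 0.30, so the numbers were not taken to pair the samples, although 10 of 12 arrays correlated best with an array of their own number, a hint from the data and not the design. With the replicate block and all arrays 4 genes were called in LNCaPabl-Abi and 4 for the mean. With the replicate block and without Enza_Ctrl replicate 2, 39, 35, 1, 303 and 540 genes were called in LNCaPabl-Abi, for the mean, for the difference, and between the untreated and the treated lines. The medians of the set were then 0.13 in LNCaPabl-Enza, -0.14 for the difference and 0.09 between the untreated lines. In that fit 1 gene of the set was called between the treated lines, ASNS, at -0.72 (limma adjusted p = 0.0346). Genes near the background rows, such as CREB3L4 and PPP1R15A, are limited by signal.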
